A study of Homo sapiens with 8 samples.

Results

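The genes described here are 8 that liver cells transcribe at high levels: albumin (ALB), alpha-fetoprotein (AFP), transthyretin (TTR), alpha-2-macroglobulin (A2M), the fetuin gene AHSG, the antitrypsin gene SERPINA1, the retinol carrier RBP4 and the fatty acid binding protein FABP1. They were taken by name from a table of 26830 genes, and all 8 were present. The table holds 8 libraries from 4 cultures that the labels call HEK293T, an embryonic kidney line, derived from a single clone (so not from independent lines) carrying the nuclease Cas9. Of these, 3 cultures carried a different lentiviral guide RNA against METTL16, an RNA methyltransferase (sgMETTL16-1, sgMETTL16-2 and sgMETTL16-3), and 1 carried a negative control guide (sgNS). Selection used 2 antibiotics, blasticidin (10 µg/ml) with puromycin (2 µg/ml), over at least 1 week in all 4 cultures. Before harvest every culture received cycloheximide (100 µg/ml, 5 min), which blocks translation. A culture gave a library of ribosome footprints, the 17 to 34 nt stretches of mRNA that ribosomes shield from digestion, and a library of input RNA. The series asks how METTL16 affects translation, for which footprints are read against input.

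Hepatocytes make most of the protein in blood plasma, and 7 of these genes encode proteins that enter the secretory pathway through the endoplasmic reticulum. FABP1 is the exception, since it stays in the cytosol, where it binds fatty acids. Albumin and alpha-fetoprotein are relatives that carry fatty acids and other small molecules in the adult and in the fetus. AFP is silenced in liver after birth and often returns in liver tumours.

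Values are TPM, transcripts per 1000000, a share of a library that is corrected for transcript length. Read totals are not given, so the depth behind a value is unknown. Protein-coding genes held from 11.9% to 28.2% of footprint TPM and from 20.1% to 26.3% of input TPM. Footprint shares below are therefore taken of protein-coding TPM, and a ratio of footprints to input is the ratio of these shares. From 4362 to 6735 genes were above 0 in a footprint library, against 17982 to 18805 in an input. METTL16 itself stood at 4.72, 5.25 and 4.16 TPM in the sgMETTL16 inputs and at 5.31 TPM in the sgNS input, all 3 below sgNS. METTL16 footprints had a value of 0 with each of the 3 guides, against 19.76 TPM in sgNS.

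Most markers went against the kidney label. Among 12 markers of hepatocytes, 9 reached 10 TPM in each of the 4 inputs, while TAT, CPS1 and CYP2E1 were low, the last at 0.1 TPM or less. Their summed level was 2154 to 2988 TPM in the sgMETTL16 inputs and 2052 TPM in the sgNS input. Of 11 measured markers of HEK293 cells and embryonic kidney, 7 were under 1 TPM in all inputs, NEFL and NEFM being listed at 0 in all 8 libraries. VIM was listed at 0 in the inputs but at 85.2, 78.7 and 43.3 TPM in the sgMETTL16 footprints and 188 TPM in sgNS footprints, so its input values do not show absence. ENO2, NES and CDH2 stood at 6.13 to 12.1 TPM in the inputs and L1CAM at 1.87 to 2.24 TPM. That list summed to 26.6 to 35.1 TPM in the sgMETTL16 inputs and 26.1 TPM in sgNS, with VIM entering at 0. In footprints it summed to 59.0 to 113 TPM in sgMETTL16 and 188 TPM in sgNS. The hepatocyte list summed to 681 to 2768 TPM in sgMETTL16 footprints and 1860 TPM in sgNS footprints. FABP1 is also a gene of intestine and AFP and TTR of yolk sac. Of 8 intestinal markers, 7 were under 1 TPM in all inputs (CDX2 at 0.06 TPM or less, FABP2 at 0.18 or less). The remaining one, VIL1, stood at 41.6 to 76.6 TPM there. All 5 measured yolk sac and pluripotency markers (NANOG, LIN28A, SALL4, SOX17 and DPPA4) were under 1 TPM in all inputs. A likeness to either tissue was not tested. In such bulk RNA, a smaller number of cells that make a transcript and less of it per cell cannot be told apart.

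ALB and AFP headed the footprint libraries. ALB was the protein-coding gene with the highest footprint TPM in all 3 sgMETTL16 cultures and ranked 2 in sgNS, and AFP ranked 2 in all 3 sgMETTL16 cultures and 1 in sgNS. In the inputs ALB ranked 13, 6 and 32 in sgMETTL16-1, sgMETTL16-2 and sgMETTL16-3 and 80 in sgNS, and AFP ranked 45, 21 and 102 in the sgMETTL16 cultures and 105 in sgNS. ALB alone took 3.57%, 2.48% and 1.34% of protein-coding footprint TPM in the sgMETTL16 cultures and 1.70% in sgNS. The 8 genes together took 7.33%, 5.66% and 3.57% of it in sgMETTL16 and 4.04% in sgNS, against 3.05%, 2.87% and 2.39% of protein-coding input TPM in sgMETTL16 and 1.91% in sgNS.

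**Figure D1:**
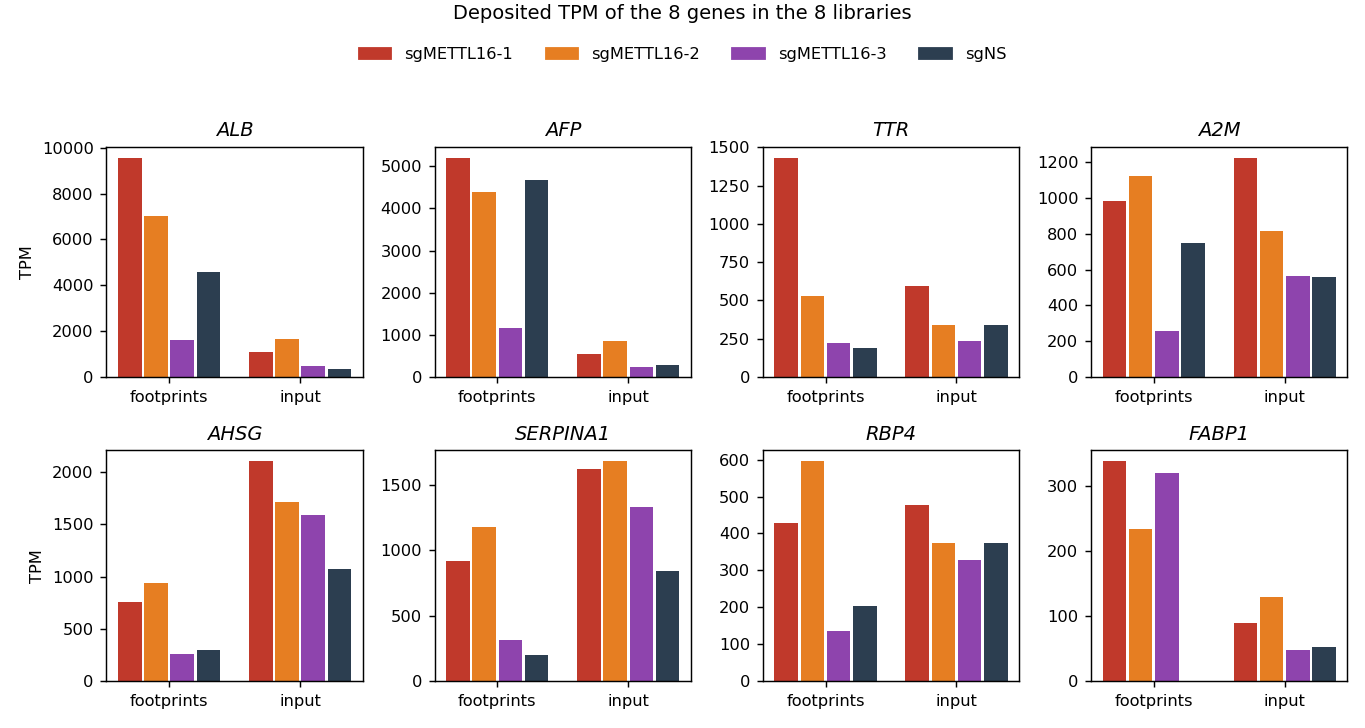
Deposited TPM (linear axis from 0, scaled per gene) of the 8 genes, with footprints left of input and 1 bar for each culture, sgMETTL16-1, sgMETTL16-2, sgMETTL16-3 and sgNS from left to right. ALB and AFP bars are taller in footprints than in input in every culture, AHSG bars are shorter, and FABP1 has no footprint bar in sgNS.

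ALB and AFP are neighbours on chromosome 4 (GRCh38.p14), ALB at 73404287 to 73421482 and AFP at 73436221 to 73456174, with 14738 bases between them. The other genes lie apart, AHSG on chromosome 3 (186613060 to 186621318), FABP1 on 2 (88122982 to 88128062), RBP4 on 10 (93591694 to 93601744), A2M on 12 (9067708 to 9116229), SERPINA1 on 14 (94376747 to 94390635) and TTR on 18 (31591877 to 31598821). The upstream sequences of ALB and AFP, from RefSeq, are shown because the transcripts of this pair stand together at the head of the footprints. The stretches are the 250 bases before each start on the plus strand, chr4:73404037-73404286 for ALB and chr4:73435971-73436220 for AFP. Capitals mark the letters of the TATA box, TATAAA, a general element of promoters, searched on both strands as TATAAA or TTTATA. This motif was chosen after the sequences were seen.
ALB: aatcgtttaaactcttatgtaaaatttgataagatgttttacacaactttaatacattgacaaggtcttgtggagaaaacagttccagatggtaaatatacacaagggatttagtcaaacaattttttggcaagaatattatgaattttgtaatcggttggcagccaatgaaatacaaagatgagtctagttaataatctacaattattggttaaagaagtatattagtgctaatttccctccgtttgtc
AFP: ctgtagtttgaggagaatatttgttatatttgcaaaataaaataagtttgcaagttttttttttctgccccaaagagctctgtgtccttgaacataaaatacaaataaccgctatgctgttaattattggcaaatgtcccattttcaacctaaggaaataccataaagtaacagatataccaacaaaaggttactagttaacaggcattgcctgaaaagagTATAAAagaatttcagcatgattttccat
Counted from the start, where -1 is the base just before it, the motif began at -29 in AFP, and these letters were not in the ALB window. They were also found at -31 in FABP1 and before RBP4, at -31 from 1 of its starts and at -227 and -225, overlapping, from another. So 3 of the 6 genes with a sequence here held the motif, and AHSG and SERPINA1 did not. Of 35116 promoter windows of this length, 10.7% held it. This share counts windows, while 3 of 6 counts genes, and RBP4 and SERPINA1 had more than 1 window each. A match describes these letters and is not a test of binding.

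The first comparison asked where ribosomes sat relative to the RNA present, by setting 4 footprint libraries against 4 inputs. Ribosome footprints of ALB came to 9572, 7002 and 1604 TPM with guides sgMETTL16-1, sgMETTL16-2 and sgMETTL16-3, against 4569.7 TPM in sgNS. ALB input stood at 1099, 1668 and 477 TPM in the sgMETTL16 cultures and 354 TPM in sgNS. On the protein-coding scale every footprint library lay above every input, and the ratio was 8.27, 3.92 and 5.66 in sgMETTL16 and 9.72 in sgNS. ALB was 6.49-fold higher in footprints than in input (log2 difference 2.70, SE 0.44, Benjamini-Hochberg adjusted p = 0.00916 by limma, which fits all genes together). AFP footprints were at 5208, 4385 and 1153 TPM in sgMETTL16 and 4677 TPM in sgNS. AFP input was at 549.8, 843 and 230.1 TPM in sgMETTL16 and 278 TPM in sgNS. Here too the kinds did not overlap, with ratios of 8.99, 4.85 and 8.43 in sgMETTL16 and 12.7 in sgNS. AFP was 8.26-fold higher in footprints (log2 difference 3.05, SE 0.36, limma adjusted p = 0.00141). Both genes were thus higher in footprints in 4 of 4 cultures, and sgMETTL16-2 had the lowest ratio of both.

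AHSG, a fetuin that inhibits mineral deposition in blood, went the other way. Its footprints were at 756, 941 and 256 TPM in sgMETTL16 and 294 TPM in sgNS. Its input was at 2104, 1712 and 1590.45 TPM in sgMETTL16 and 1074 TPM in sgNS, and it ranked 3, 4 and 4 among protein-coding input genes in sgMETTL16 and 14 in sgNS. Every footprint library lay below every input, with ratios of 0.341, 0.513 and 0.271 in sgMETTL16 and 0.206 in sgNS. AHSG was lower in footprints (log2 difference -1.67, SE 0.36, limma adjusted p = 0.0281).

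SERPINA1, the inhibitor of neutrophil elastase, was below its input in all 4 cultures, although the kinds overlapped narrowly. Its footprints were at 915, 1177 and 312 TPM in sgMETTL16 and 196 TPM in sgNS, and its input at 1625, 1679 and 1333 TPM in sgMETTL16 and 842 TPM in sgNS. The log2 difference was -1.34 (SE 0.50, limma adjusted p = 0.113). With the culture as a block the same difference passed (adjusted p = 0.0462), and ALB (2.4e-05), AFP (1.49e-05) and AHSG (0.00918) passed as well.

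The other 4 genes did not pass. TTR, which carries thyroxine and holds RBP4 in plasma, had ratios of 2.29, 1.47 and 1.58 in sgMETTL16 and 0.423 in sgNS (log2 difference 0.29, SE 0.55). RBP4, the plasma carrier of retinol, had ratios of 0.856, 1.49 and 0.695 in sgMETTL16 and 0.408 in sgNS (log2 difference -0.37, SE 0.35). A2M, a trap for proteases, lay nearest to 1, with 0.76, 1.29 and 0.762 in sgMETTL16 and 1.01 in sgNS (log2 difference -0.10, SE 0.30). FABP1 had ratios of 3.58, 1.69 and 11.5 in sgMETTL16 but no footprint value above 0 in sgNS. Between the highest and the lowest of the 7 genes seen in every library, AFP and SERPINA1 in sgNS, the ratio ran from 12.7 to 0.176.

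**Figure D2:**
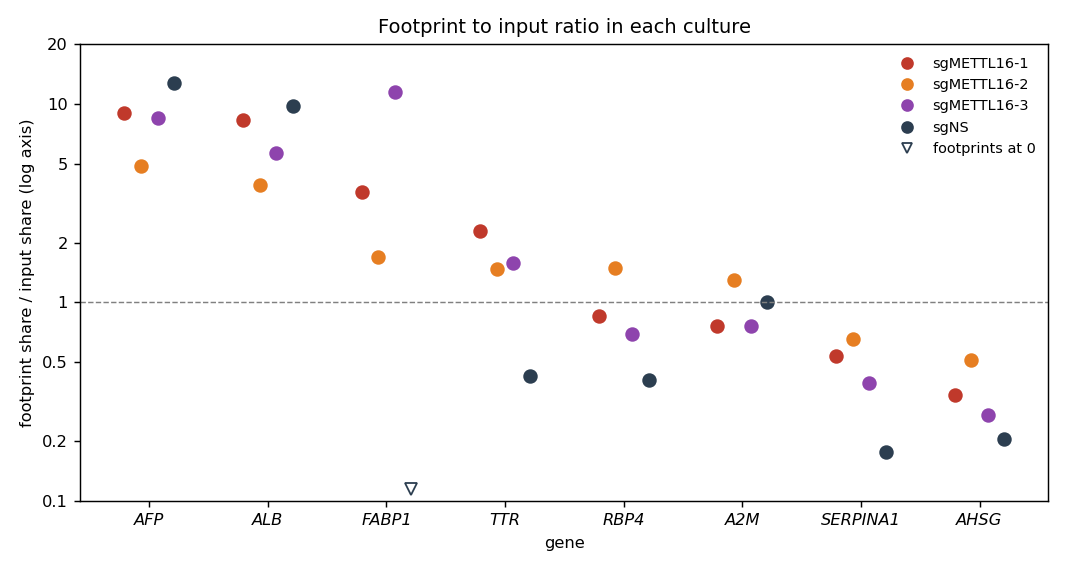
Footprint share of protein-coding TPM divided by input share (log axis), 1 point for each culture and gene, with the open triangle for FABP1 in sgNS, whose footprints were at 0. AFP and ALB lie between 3.92 and 12.7 in all cultures and AHSG between 0.206 and 0.513, and the dashed line marks 1.

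In all, 3 of the 8 genes were called, 2 higher and 1 lower, beside 6.65% of the 8914 genes tested (3.6% higher and 3.05% lower). Non-overlap of the kinds in the upward direction was seen in 8.45% of all genes tested and in the downward direction in 14.9%. A gene at 0 in any footprint library could not show the upward kind. Its 753 genes were thus all above 0 in every footprint library, as were only 1870 genes tested in the footprint comparison below. Among genes seen in every library, like ALB and AFP, upward non-overlap was therefore more common than 8.45%. The median tested gene stood at -1.29, so ALB and AFP lay 3.99 and 4.34 above it, and AHSG lay 0.38 below it. Over the 1826 genes above 0 in every library, an alternative chosen after seeing the data, the median stood at 0.91. Of these 1826 genes, 1114 were called, 868 higher and 246 lower. Among the 7 listed genes in that set 4 were called, 2 higher and 2 lower, so calls were common among genes seen in every library. Without the intensity trend in the variance none of the 8 passed (AFP adjusted p = 0.0514, ALB 0.0691, AHSG 0.148), and without sgMETTL16-1 only AFP did (ALB 0.0773, AHSG 0.151). The AHSG call was also lost without sgMETTL16-2 (0.0708) or sgMETTL16-3 (0.128), on TPM as deposited (0.0607) and with each library centred on its median gene (-0.36, adjusted p = 0.768), where the median of all differences stood at 0.80.

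Outside the SERPINA genes, relatives of these genes were mostly low or silent. AFM and GC, the other members of the albumin family and residents of chromosome 4, were at 0.11 TPM or less in every input and listed at 0 in every footprint library. FABP5 averaged 8.87 TPM in the inputs, and the other 8 of 9 fatty acid binding proteins besides FABP1 were under 1 TPM in each input. PZP, A2ML1 and CPAMD8, kin of A2M, averaged 0.04 TPM or less in the inputs, and CD109, of the same family, 1.32 TPM. FETUB, HRG and KNG1, which share cystatin domains with AHSG, averaged 1.14, 0.765 and 1.17 TPM. Among SERPINA genes of chromosome 14, SERPINA3 (1068 TPM in the mean input) and SERPINA5 (170.3 TPM) followed SERPINA1. Of the 8 besides SERPINA1, 5 reached 10 TPM in every input. STRA6 and LRAT, the receptor for RBP4 and the enzyme that stores retinol, averaged 0.03 and 0.01 TPM.

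Among 25 other secreted plasma proteins, 19 reached 10 TPM in every input. Of the 22 tested between footprints and input, 3 were higher in footprints and none lower, beside 3.6% higher and 3.05% lower of all tested genes. Their median log2 difference was -0.55, above the -1.29 of all tested genes. It was below the 0.91 of the 1826 genes above 0 in every library, of which 868 were called higher. APOH, beta-2-glycoprotein I, was higher by 2.23, ITIH2, an inter-alpha-trypsin inhibitor chain, by 2.00, and SERPINA7, thyroxine-binding globulin, by 2.27 (limma adjusted p = 0.00876, 0.0138 and 0.0378 in that order). SERPINA3 (0.51), AMBP (-1.22), TF (-0.05) and AGT (-0.16), the 4 with most input RNA, did not pass. Among fetal liver genes, 1 of 8 tested was higher, the glypican GPC3 (1.39, limma adjusted p = 0.036), and 1 lower, the retrotransposon-derived PEG10 (-2.04, adjusted p = 0.0154). H19 and IGF2, imprinted partners of fetal growth, were at 0.16 and 0.01 TPM or less in all inputs. Among hepatocyte transcription factors, HNF4A and FOXA1 were lower in footprints (limma adjusted p = 0.0189 and 0.0481). Both were listed at 0 in 3 of the 4 footprint libraries and seen in the other at 18.5 TPM (HNF4A) and 8.92 TPM (FOXA1), against mean inputs of 93.3 and 20.7 TPM.

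**Figure D3:**
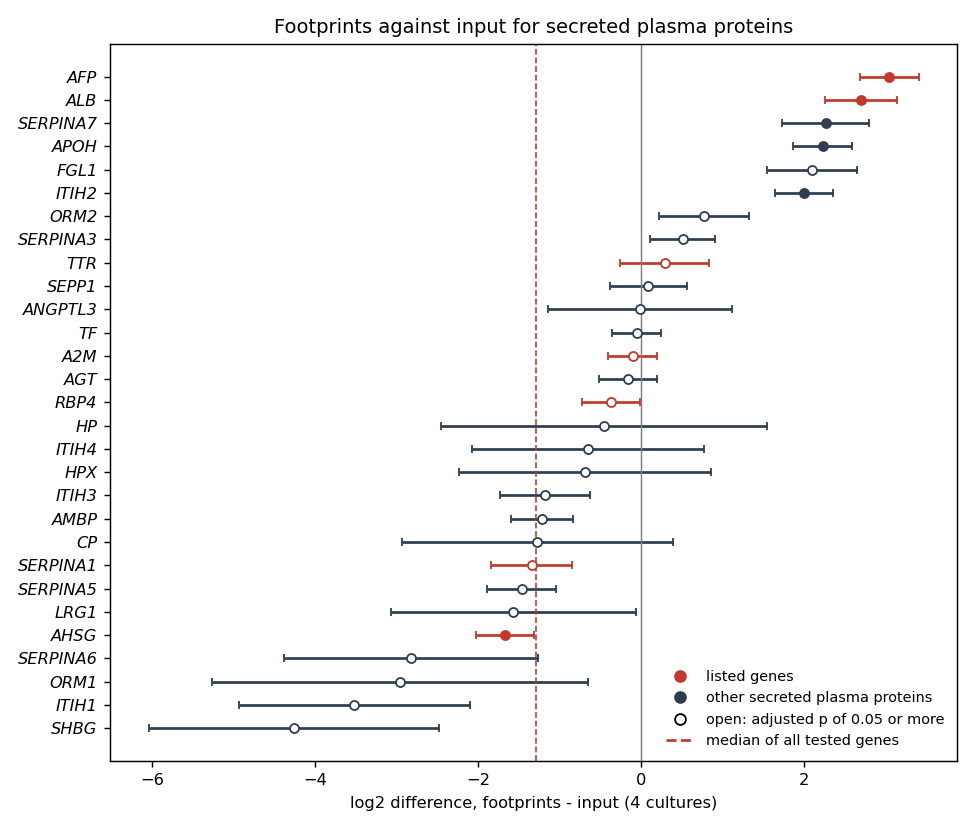
Log2 difference of footprints minus input over 4 cultures (horizontal axis, bars are SE) for 7 listed genes in red and 22 other secreted plasma proteins in dark blue, filled where the adjusted p was under 0.05. AFP (3.05) and ALB (2.70) stand at the top and AHSG (-1.67) is the lowest filled point, with the dashed line at the median of all tested genes, -1.29.

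The input comparison asked whether the 8 transcripts differed in abundance with the guides. None of the 8 passed between sgMETTL16 (n = 3 cultures) and sgNS (n = 1), beside 2.83% of 10967 genes tested (1.58% higher and 1.25% lower), and none had an unadjusted p under 0.05. ALB was the nearest, at 1081 ± 596 TPM in sgMETTL16 (SD, n = 3) and 354 TPM in sgNS, with all 3 cultures above sgNS (log2 difference 0.90, SE 0.46, limma adjusted p = 0.449). These p-values rest on the spread between cultures with different guides, the lone sgNS culture being taken to vary as they do. In this fit that spread was pooled over genes of like level, and a gene's own spread had no weight. SERPINA1 (SE 0.48) and ALB (SE 0.46) therefore had like errors, whatever their own spread among the guides. The spread of ALB among the guides was wide, from 477 to 1668 TPM, a 3.5-fold range. ALB passed without sgMETTL16-3 (1.22, adjusted p = 0.0116) and with a pseudocount of 10 (1.18, adjusted p = 0.0143). AFP was at 541 ± 306 TPM in sgMETTL16 and 278 TPM in sgNS (log2 difference 0.24). AHSG was at 1802 ± 268 TPM in sgMETTL16 and 1074 TPM in sgNS (0.21), and SERPINA1 at 1545 ± 186 TPM in sgMETTL16 and 842 TPM in sgNS (0.34). A2M was at 869 ± 334 TPM in sgMETTL16 and 557 TPM in sgNS (0.04). The SERPINA1 input was above sgNS in 3 of 3 cultures, from 1333 to 1679 TPM. Bile duct markers summed to 479.6 to 720.3 TPM in the sgMETTL16 inputs and 244 TPM in sgNS, 4 of 5 being at 10 TPM or more and KRT7 at 0.32 or less. Stellate cell and fibroblast markers summed to 45.8 to 54.2 TPM in sgMETTL16 and 22.4 TPM in sgNS, with COL1A2, LUM and DCN listed at 0. The part of these in the input values was not tested. RBP4 was at 392.2 ± 75.9 TPM in sgMETTL16 and 375 TPM in sgNS (-0.48 after centring), and TTR at 389 ± 186 TPM in sgMETTL16 and 337 TPM in sgNS (-0.43). The sign of both turned positive on TPM as deposited (0.05 for RBP4 and 0.10 for TTR), where the median gene itself stood at 0.46. FABP1 was at 88.7 ± 41.2 TPM in sgMETTL16 and 52.5 TPM in sgNS (0.10, SE 0.41).

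In the inputs AHSG had the highest level and FABP1 the lowest. AHSG exceeded SERPINA1 in 4 of 4 libraries, by 0.25 ± 0.16 (SD, n = 4) on the log2 scale, and SERPINA1 exceeded A2M in 4 of 4, by 0.82 ± 0.39. A2M and ALB differed by less than their spread (0.01 ± 0.73), and so did AFP, RBP4 and TTR in that order (0.11 ± 0.78 and 0.11 ± 0.33). ALB exceeded AFP in 4 of 4 inputs, by 0.85 ± 0.33. TTR lay 2.28 ± 0.62 above FABP1, with ranges apart. In the footprints AFP lay 2.30 ± 0.30 above A2M, with ranges apart, while ALB and AFP (0.50 ± 0.39) overlapped, as did A2M, SERPINA1, AHSG, TTR and RBP4 with their neighbours.

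The footprint comparison asked the same question of ribosome-bound RNA. Of the 8 genes FABP1 was called, as higher in sgMETTL16, beside 6.96% of 9539 genes tested (1.27% higher and 5.69% lower). Footprints of FABP1 came to 338, 234 and 321 TPM with the 3 METTL16 guides but had a value of 0 in sgNS (limma adjusted p = 0.0393), so no fold is given. The call was lost without any 1 of the sgMETTL16 cultures (adjusted p from 0.0983 to 0.24), on TPM as deposited (0.0517), after centring (0.367), with a pseudocount of 10 (0.077) and without the intensity trend (0.051). Except after centring, no other gene was called under these settings either, so the losses are not particular to FABP1.

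Small footprint values moved in steps. Among protein-coding genes above 0 in sgNS and in another library, 1 ratio recurred, as where both libraries hold the same small number of reads: 1.89 for sgNS over sgMETTL16-1, 2.73 over sgMETTL16-2 and 2.01 over sgMETTL16-3, shared by 29.2%, 24.2% and 34.7% of the genes (tolerance 0.02 in the natural log). Multiplied by these, the FABP1 values of the sgMETTL16 libraries became 639.5, 639 and 643 TPM. They are therefore equal within the tolerance, as 1 common number of reads would give, and the differences between 338, 234 and 321 TPM match those of the libraries' steps. RBP4 footprints, at 429, 595 and 136 TPM in sgMETTL16 and 203 TPM in sgNS, stood in the same way as 12, 24 and 4 to 3, and TTR footprints as 43, 23 and 7 to 3 (within 0.15 of whole numbers). Such sets give proportions, and any common multiple of them would match too. Of 381 protein-coding genes with an sgNS input between 40 and 65 TPM, around the 52.5 TPM of FABP1, 39.9% had no sgNS footprint value above 0, and 10.8% were at 0 there and above 0 in all 3 sgMETTL16 libraries. FABP5 footprints, at 128, 59.2 and 81 TPM in sgMETTL16 and 0 in sgNS, were called too (limma adjusted p = 0.048). SERPINA6 and SERPINA11, neighbours of SERPINA1, and LRP1, a receptor for A2M, likewise had sgNS footprints of 0 and values above 0 in all 3 sgMETTL16 libraries. Among the 22 tested plasma proteins ITIH4 was lower in sgMETTL16, at 0 in all 3 libraries against 17.9 TPM in sgNS, and none was higher.

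None of the 7 genes with footprints in every library passed between the guides, although 2 of them, SERPINA1 and AHSG, had an unadjusted p under 0.05 (0.0123 and 0.0404). SERPINA1 had the smallest p of these, at 801 ± 444 TPM in sgMETTL16 and 196 TPM in sgNS, with 3 of 3 cultures above sgNS (log2 difference 2.19, SE 0.38, limma adjusted p = 0.131). AHSG was at 651 ± 354 TPM in sgMETTL16 and 294 TPM in sgNS (1.32, SE 0.37, adjusted p = 0.329), and TTR at 729 ± 630 TPM in sgMETTL16 and 190 TPM in sgNS (1.91, SE 0.87, adjusted p = 0.683). RBP4 stood at 387 ± 233 TPM in sgMETTL16 against 203 TPM in sgNS (1.05, SE 0.48). ALB (0.43, SE 0.71), A2M (0.19, SE 0.51) and AFP (-0.28, SE 0.52) lay nearer to 0. The median tested gene stood at 1.35, above 5 of these 7 differences. Over the 1870 genes above 0 in every footprint library, an alternative chosen after seeing the data, the median stood at -0.22. Of the 7 differences, AFP alone lay below that value. With each library centred on its median gene, the median of all differences stood at -1.28, and 6 of the 7 had the other sign, AFP being negative in both. In TPM as deposited, sgMETTL16-3 was the lowest sgMETTL16 library for all 7 genes, and protein-coding genes held 11.9% of its TPM, against 26.8% to 28.2% in the other 3 footprint libraries.

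Translation efficiency, the change of the footprint to input ratio with the guides, was the stated aim of the series. Among the 8 genes FABP1 was called higher in sgMETTL16 (limma adjusted p = 0.0248), beside 5.61% of 8914 genes tested (2.47% higher and 3.14% lower), again with sgNS footprints at 0. With the culture as a block it was not called (adjusted p = 0.226), nor without any 1 of the sgMETTL16 cultures (0.0643 to 0.213), on TPM as deposited (0.0629) or after centring (0.269). Except on TPM as deposited, no other gene was called under these settings either. The median tested gene stood at 0.69. Over the 1826 genes above 0 in every library, an alternative chosen after seeing the data, the median stood at -0.58. Set against 0, which is neither of these medians, the ratios of the other 7 genes split by direction. In ALB and AFP the sgNS culture had the highest ratio of the 4, at 9.72 and 12.7, and the log2 differences were -0.77 (SE 1.00) and -0.82 (SE 0.91). In TTR, AHSG, SERPINA1 and RBP4 the sgNS culture had the lowest ratio, and the differences were 2.04 (SE 1.05), 0.81 (SE 0.45), 1.56 (SE 0.44) and 1.23 (SE 0.58). A2M stood at -0.15 (SE 0.68), with sgNS between the sgMETTL16 cultures. None of the 7 passed, 1 of them (SERPINA1) having an unadjusted p under 0.05 (0.0126), with limma adjusted p from 0.131 for SERPINA1 to 0.882 for A2M. The sgNS footprint value of these genes is common to both comparisons and to the ratio.

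**Figure D4:**
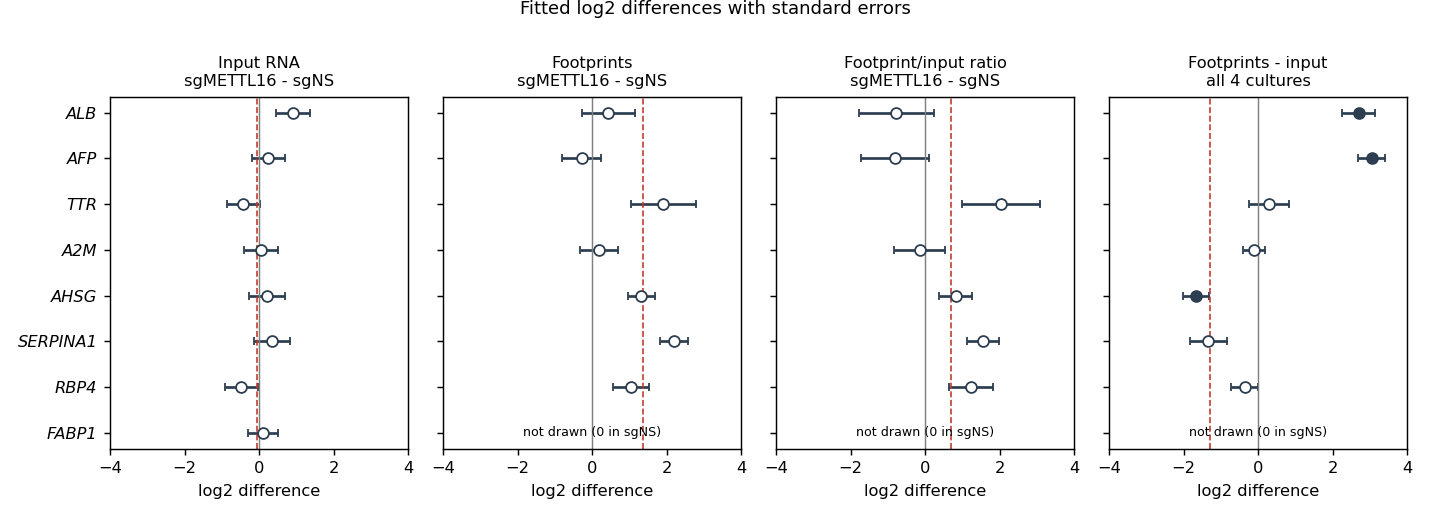
Fitted log2 differences (horizontal axes, bars are SE) of the 8 genes in the 4 comparisons, filled where the adjusted p was under 0.05, with the dashed line at the median of all tested genes. FABP1 is not drawn where its sgNS footprints at 0 enter. Filled points appear for ALB, AFP and AHSG in the comparison of footprints with input.

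Some genes followed ALB and AFP closely over the 8 libraries. Among 1673 protein-coding genes with a mean of 10 or more on the protein-coding scale in both kinds and above 0 in every library, lysozyme (LYZ, Pearson r = 0.993 on the log2 scale) was most like ALB, followed by CTR9 (0.99), ACTR3 (0.989), FAM91A1 (0.989) and UBA6 (0.987). LYZ footprints ranged from 628 to 3442 TPM and its input from 194 to 620 TPM. Lysozyme is listed among 6 macrophage and blood markers, of which LYZ and CD68 (16.3 to 47.1 TPM) reached 10 TPM in all inputs. CD14 and HBA1 stood at 1.53 to 2.95 TPM there and HBB was listed at 0. PTPRC, found on white blood cells, was at 0.01 TPM or less in the inputs, with footprints of 5.53 TPM in sgMETTL16-1 and 10.47 TPM in sgNS. The list summed to 237.4 to 670.3 TPM in the sgMETTL16 inputs and 236 TPM in sgNS, and its part in the ALB values was not tested. Fibrinogen gamma (FGG, r = 0.998) was most like AFP, with footprints of 418 to 2159.8 TPM and an input of 73.9 to 257 TPM, followed by the mitochondrial chaperone HSPD1 (0.996), ECHDC1 (0.995), the ribosomal protein RPL6 (0.995) and PSMC2 (0.992), a proteasome subunit. ALB and AFP correlated with each other at 0.975, and AHSG with them at -0.70 and -0.83. These values are descriptions over 8 libraries, which share the split into footprints and input. The 10 named genes had mean footprint to input ratios of 3.60 to 12.4, against 6.16 for ALB and 7.87 for AFP.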

How the data were processed

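Ribosome footprints and input RNA were measured in 4 cultures, 8 libraries in all, read as 51-base single ends. Per the submitters' processing notes, the authors used STAR, RSEM 1.2.31 and the build GRCh38. The deposited values are TPM and hold no counts, so depth and counting error are unknown.

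Gene types came from RefSeq (GRCh38.p14): 23987 symbols matched by name, 1395 by an older name and 1448 not at all. Fits used limma 3.58.1 in R 4.3.3 with an intensity trend, on log2(value + 1), with Benjamini-Hochberg adjustment over all tested genes and a threshold of 0.05. With this pseudocount, changes of low input genes are understated. Where a footprint library is listed at 0, the size of a difference depends on the pseudocount and can be large. For FABP1 footprints the log2 difference was 10.5, against 13.8 with a pseudocount of 0.1 and 7.15 with 10. Input values were TPM centred on the median tested gene, for genes with a mean of 1 or more. The footprint and ratio fits used TPM rescaled to a sum of 1000000 over protein-coding genes, because the median footprint gene is near 0. The ratio was tested as the interaction of guide and library kind. The labels assign input and footprints to 1 culture, which pairs them. Their deviations from the kind means correlated at 0.061 or less within cultures. Fits were also run on simulated data with known changes in genes of moderate level. That run did not model the steps of small footprint values, so it does not bear on calls that rest on a 0.

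Named genes were the 8 members, the 5 genes most like ALB and AFP, METTL16, and from each list the 4 with most input RNA and up to 4 called members. Members and lists were chosen with earlier results of these data known. Alternatives were another scaling, pseudocounts of 0.1 and 10, no filter or a mean of 10, no intensity trend, leaving out a culture, the culture as a block and, added after seeing the data, genes above 0 in every library. Some results for the transcription factor list are not reported here.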

Additional observations from a re-analysis of the deposited data

Results flagged for a closer look

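FABP1 footprints in sgNS, listed at 0, stood far from the other 3 libraries: the gap made up 0.851 of the whole range on the log2 scale, above Dixon's 95% limit for 4 samples. The SERPINA1 input, rescaled to a sum of 1000000 over protein-coding genes, was at 6373 to 6638 in sgMETTL16 and at 4154 in sgNS, which stood apart with a gap of 0.913 of the range on the log2 scale. The deposited TPM, 1333 to 1679 in sgMETTL16 and 842 in sgNS, lie less far apart for their range. The same holds for the deposited FABP1 footprints, 234 to 338 TPM in sgMETTL16 and 0 in sgNS, whose gap on the log2 scale depends on the pseudocount. In 16 groups of 4 libraries looked at, chance flags about 1 in 20. The FABP1 footprint to input ratio differed between sgMETTL16 and sgNS by the interaction test (limma adjusted p = 0.0248). That call rests on the sgNS footprint value of 0, and with the culture as a block it was not made (limma adjusted p = 0.226).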

How the results depend on the processing

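Of 365 values recomputed under other settings, 315 kept their direction and side of the threshold, 24 turned sign, 22 lost the threshold and 4 passed it. Most of these values were not called to begin with, and only called ones could lose the threshold. FABP1 stayed called in 3 of 10 alternatives for footprints and 5 of 11 for translation efficiency. For footprints against input, ALB stayed called in 11 of 13, AFP in 12 of 13 and AHSG in 7 of 13. Of the 8 genes, the number called in the input was 0 and became 1 with a pseudocount of 10, and ranged from 0 to 1 when a culture was left out. In footprints it was 1 and became 0 after median centring, on TPM as deposited, with a pseudocount of 10, without the intensity trend and without any 1 sgMETTL16 culture. For translation efficiency it was 1 and became 0 after median centring, on TPM as deposited and without any 1 sgMETTL16 culture, and with the culture as a replicate block it was 0. Both counts are also 0 with genes above 0 in every library (chosen after seeing the data), by construction and not as a test, since FABP1, the gene called, is listed at 0 in sgNS footprints and 7 genes remain. For footprints against input it was 3, became 0 without the intensity trend, ranged from 1 to 3 when a culture was left out and was 4 with the block.

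Signs turned as follows, and the cause was not tested. In the input, on TPM as deposited, TTR became 0.10 and RBP4 0.046, and A2M became -0.041 with a pseudocount of 0.1. Leaving out a culture gave -0.041 to 0.58 for AFP, -0.19 to 0.18 for A2M and -0.10 to 0.31 for FABP1. Median centring put the median of all genes at -1.28 in footprints, -1.44 in translation efficiency and 0.80 in footprints against input, so signs there turn with all genes. In footprints it gave -2.02 for ALB, -0.54 for TTR, -2.27 for A2M, -1.13 for AHSG, -0.26 for SERPINA1 and -1.40 for RBP4. A2M was -0.18 on TPM as deposited, and AFP ran from -0.50 to 0.0005 when a culture was left out. For translation efficiency, centring gave -0.16 for TTR, -1.38 for AHSG, -0.64 for SERPINA1 and -0.96 for RBP4. For footprints against input, centring gave 1.21 for A2M, 0.94 for RBP4 and 1.29 for FABP1, and FABP1 was 0.32 with a pseudocount of 10. Leaving out a culture gave -0.008 to 0.80 for TTR and -1.81 to 2.03 for FABP1.

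Counts over all genes moved both ways. In the input 310 ran from 23 (TPM as deposited) to 664 (without sgMETTL16-3). In footprints 664 ran from 0 (TPM as deposited, a pseudocount of 10, no intensity trend or a culture left out) to 810 (pseudocount 0.1). For translation efficiency 500 ran from 0 (centring, the replicate block or an sgMETTL16 culture left out) to 908 (pseudocount 0.1) and 1303 of 20726 (no filter). For footprints against input 593 ran from 96 (centring, or without sgMETTL16-1) over 352 (replicate block) to 1250 (pseudocount 10), 1114 of 1826 (genes above 0 in every library) and 9585 of 20726 (no filter). With 1 sgNS culture and no read totals, neither its own variation nor the counting error of a value can be measured.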
